A study of Mus musculus with 4 samples.

Results

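The AP-1 subunit genes examined here are Fos, Fosb, Fosl1 and Fosl2 of the Fos family, Jun, Junb and Jund of the Jun family, and Atf3. They were chosen by name, as 8 of the 21631 protein-coding genes on chromosomes 1 to 19 and X. For each gene, peaks of accessible DNA were collected in the locus, meaning the gene body and 20 kb on either side. The peaks come from ATAC-seq, in which the transposase Tn5 cuts open chromatin, on Balb/c mouse CD8+ T cells, tumour-infiltrating by the series title. There were 4 libraries, 1 per condition and without replicates: unstimulated and untreated, unstimulated with phenelzine, stimulated and untreated, and stimulated with phenelzine. Stimulation was 2 h with the phorbol ester PMA and the calcium ionophore ionomycin. The labels give 1 mg/mL for PMA and 10 mM for ionomycin and do not say whether these are stock or final concentrations. Phenelzine, an antidepressant, blocks monoamine oxidases and the histone demethylase LSD1. The sources used here do not give its dose or duration, the tumour, the sort or whether animals were pooled. No test between conditions was possible, and the differences below have no replicate check.

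AP-1 is a dimer of basic leucine zipper proteins that binds the sequence TGACTCA and its relatives. Jun proteins pair with each other or with Fos proteins, whereas Fos proteins need a Jun partner, and Atf3 is a stress-induced relative that also pairs with Jun. In T cells PMA activates protein kinase C and the Ras and MAP kinase pathway, and ionomycin raises calcium and activates NFAT, which binds together with AP-1 at cytokine genes. Fos, Fosb, Jun and Junb are immediate early genes, transcribed within minutes of a signal, and Fosl1 and Fosl2 respond later.

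The 4 lists merged into 15237 regions by any overlap of peaks, and 23 of these lay in the 8 loci, built from 55 peaks. All 8 genes had a region in the unstimulated untreated list and in the stimulated untreated list, 6 had one in the unstimulated phenelzine list and 7 in the stimulated phenelzine list. Of all coding genes 40.4%, 50.6%, 44.6% and 47.6% had one, in the same order of lists. All 4 lists had a region at 6 members, all but Fosl1 and Fosl2, and at 33.3% of coding genes. The median number of regions per member was 1.5 in the unstimulated untreated, 1 in the unstimulated phenelzine, 2 in the stimulated untreated and 1 in the stimulated phenelzine list, and that per coding gene 0, 0, 1 and 0. At Fos the stimulated untreated list held 4 regions in its locus, among them a peak on the promoter, and the stimulated phenelzine list held 1. Junb had a start-site peak in every list but the unstimulated untreated one. Jun, Jund, Fosb and Atf3 each had a region near the start site that all 4 lists held.

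The sequences just before the start sites are shown for the 5 members with a peak there in at least 1 list. At all but Atf3 the lists differ in which part their peaks cover. They are the 250 bases up to the start, 5′ to 3′ along the gene, from RefSeq for the build GRCm38.p6, whose coordinates are those of mm10. Capitals mark TGACG or its complement CGTCA, the core of the cyclic AMP response element (CRE) bound by CREB and ATF proteins, and TGACATCA, an AP-1-like site known from the Jun promoter.
Fos, chr12:85473640-85473889, plus strand: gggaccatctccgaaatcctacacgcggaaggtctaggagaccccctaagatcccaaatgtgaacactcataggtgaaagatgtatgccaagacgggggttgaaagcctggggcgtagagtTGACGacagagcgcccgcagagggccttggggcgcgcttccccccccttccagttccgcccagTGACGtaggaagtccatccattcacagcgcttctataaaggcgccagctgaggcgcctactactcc
Fosb, chr7:19310046-19310295, minus strand: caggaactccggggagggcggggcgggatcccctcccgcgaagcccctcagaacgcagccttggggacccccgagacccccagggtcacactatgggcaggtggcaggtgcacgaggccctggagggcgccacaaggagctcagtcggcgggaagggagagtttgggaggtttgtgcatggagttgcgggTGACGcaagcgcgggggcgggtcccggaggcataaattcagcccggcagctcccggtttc
Jun, chr4:95052223-95052472, minus strand: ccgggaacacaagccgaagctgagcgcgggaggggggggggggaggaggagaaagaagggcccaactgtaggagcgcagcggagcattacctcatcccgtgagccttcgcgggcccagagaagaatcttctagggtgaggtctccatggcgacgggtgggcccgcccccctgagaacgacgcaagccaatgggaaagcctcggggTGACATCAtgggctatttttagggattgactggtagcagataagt
Junb, chr8:84978749-84978998, minus strand: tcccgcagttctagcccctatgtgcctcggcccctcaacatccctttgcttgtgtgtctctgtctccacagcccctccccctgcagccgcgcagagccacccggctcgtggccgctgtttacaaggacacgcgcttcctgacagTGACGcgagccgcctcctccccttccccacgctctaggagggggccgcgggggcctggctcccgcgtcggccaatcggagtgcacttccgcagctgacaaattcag
Atf3, chr1:191183334-191183583, minus strand: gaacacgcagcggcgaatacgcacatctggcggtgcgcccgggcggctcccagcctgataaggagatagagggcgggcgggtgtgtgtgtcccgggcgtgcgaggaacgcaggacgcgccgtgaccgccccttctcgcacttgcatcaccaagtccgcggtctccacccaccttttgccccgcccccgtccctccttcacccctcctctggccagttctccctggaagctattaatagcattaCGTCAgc

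Motifs were searched on both strands in a window from 250 bases before to 50 after the start. The table of such windows held 7 of the 8 members, with no entry for Fosl1. The palindromic CRE TGACGTCA contains the TGACG core on both strands. Neither the AP-1 site TGACTCA, the CRE nor the CArG box bound by serum response factor occurred in any of the 7 windows, against 5.22%, 1.80% and 1.64% of all 32619 windows. Sequence outside the windows was not searched, and the Fos peak of the stimulated untreated list begins at -351, before its window. So the promoters may hold these sites farther out. TGACG was found in 4 of the 7 members, Fos, Fosb, Junb and Atf3, and in 20.9% of all windows. TGACATCA was found in Jun alone of the 7 and in 3.18% of all. TGACG, TGACATCA and the TATA element TATAAA were added after the sequences were seen. A GC box, GGGCGG, lay in 5 of 7 members (35.9% of all windows), namely Fos, Fosb, Fosl2, Jun and Atf3. The CCAAT box lay in 3 of 7 (37.6% of all), namely Jun, Junb and Atf3, that of Atf3 after the start at 6 to 10. TATAAA lay in 2 of 7 (13.7% of all), in Fos at -33 to -28 and in Junb after the start at 1 to 6.

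**Figure D1:**
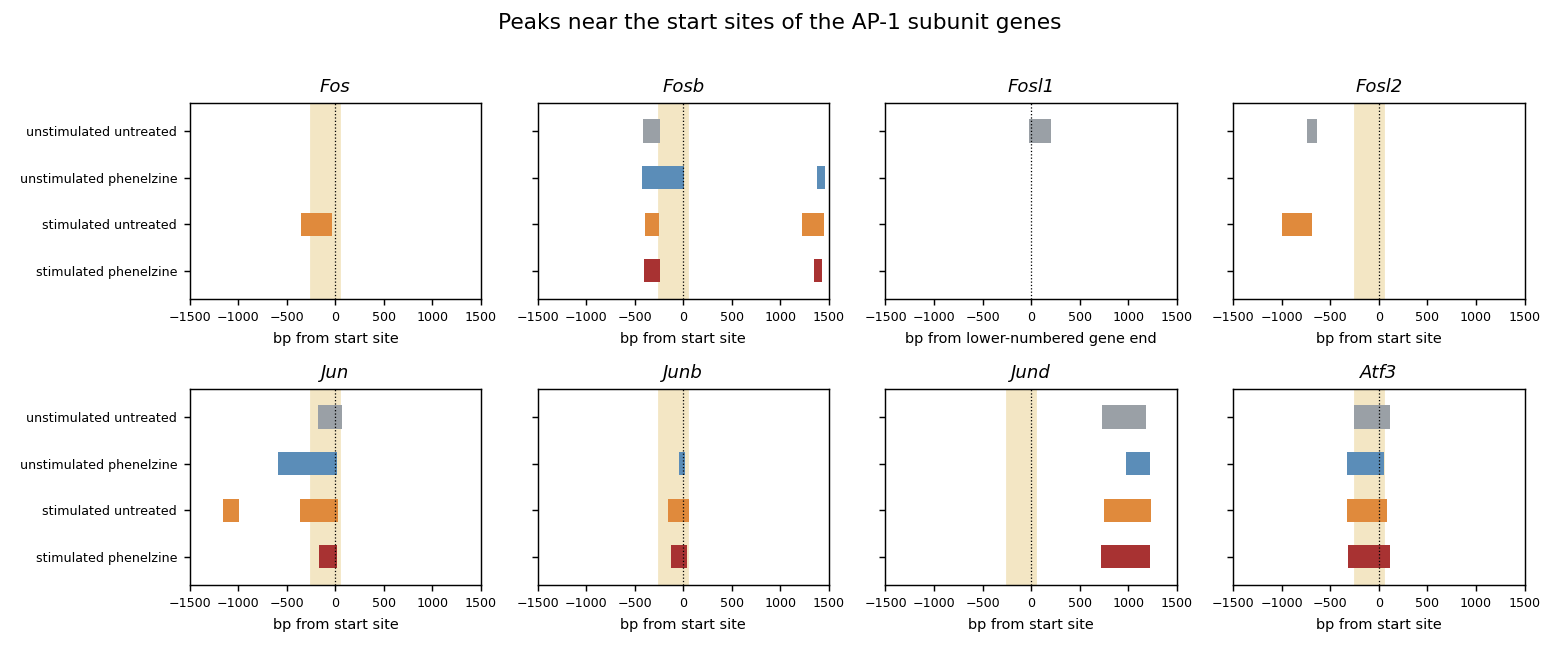
Peaks within 1500 bp of the start sites of the 8 genes, 1 row per list, with the distance from the start site along the gene in bp (for Fosl1 the distance from its lower-numbered end) and the promoter window of 250 bp before to 50 bp after the start shaded. Fos has a bar in the stimulated untreated row alone, Junb lacks one in the unstimulated untreated row, and Jun and Atf3 have bars over the start in all 4 rows.

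Fos encodes the founding Fos protein, and no other protein-coding gene lies in its 43.4 kb locus (gene body chr12:85473890-85477274, plus strand). It had 4 regions. The promoter region, chr12:85473539-85473859, was held by the stimulated untreated list alone. Its peak ran from position -351 to -31 counted from the start, with fold enrichment 5.18, −log10 q 3.50 and rank 4153 of 10405 by −log10 q in its list. It covered both TGACG cores of the printed Fos sequence, at -129 to -125 and at -66 to -62, and the GC box at -74 to -69, and ended inside the TATA element at -33 to -28. The other 3 lists had no peak in this window. A peak in the promoter window in the stimulated untreated list and in no other list was found for 1.82% of all windows.

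The other Fos regions lay farther out. The one 18.3 kb upstream, chr12:85455200-85455578, overlapped the noncoding gene Gm38543 and was held by all 4 lists. Its −log10 q was 2.87 in the unstimulated untreated, 3.20 in the unstimulated phenelzine, 5.71 in the stimulated untreated and 4.15 in the stimulated phenelzine list. It was the only Fos region of the stimulated phenelzine list. A region 5.0 kb upstream, chr12:85468758-85468895, was held by the unstimulated phenelzine list (−log10 q 2.06) and the stimulated untreated list (2.26), below the median of both. The region 12.1 kb downstream of the start, chr12:85486004-85486143, was held by the 2 untreated lists and by neither phenelzine list. Its peak had −log10 q 4.14 in unstimulated cells and 6.72 in stimulated cells, the highest value of any member peak, at rank 1101 of 10405. Fos thus had 2 regions in each unstimulated list, 4 in the stimulated untreated list and 1 in the stimulated phenelzine list, and no other coding gene had these 4 counts.

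Fosb encodes a Fos protein that also occurs as a stable truncated form (gene body chr7:19302696-19310118, minus strand). Its locus had 5 regions, more than any other member, with 2 in the unstimulated untreated list, 3 in the unstimulated phenelzine list, 3 in the stimulated untreated list and 5 in the stimulated phenelzine list. The start-site region, chr7:19310035-19310472, was held by all 4 lists. In the unstimulated untreated list its peak ran from -410 to -237, in the stimulated untreated list from -398 to -248 and in the stimulated phenelzine list from -401 to -241. The unstimulated phenelzine peak alone reached the start, from -427 to 11, and so covered the TGACG core at -60 to -56 of the printed Fosb sequence. The −log10 q of these peaks was 4.95 in the unstimulated untreated, 5.69 in the unstimulated phenelzine, 3.73 in the stimulated untreated and 1.95 in the stimulated phenelzine list.

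A region inside the Fosb gene, chr7:19308586-19308819, was held by every list but the unstimulated untreated one, with −log10 q 2.86, 2.82 and 3.18 in the unstimulated phenelzine, stimulated untreated and stimulated phenelzine lists. A region 10.0 kb upstream, chr7:19320054-19320245, was held by all 4 lists, with −log10 q 3.98, 2.18, 3.59 and 1.79 in the unstimulated untreated, unstimulated phenelzine, stimulated untreated and stimulated phenelzine lists. The 2 regions that brought the stimulated phenelzine list to 5 were weak ones. That at chr7:19301180-19301275, past the end of the gene, had −log10 q 1.96, and that at chr7:19321592-19321664 had 1.32, rank 8902 of 9322. With only peaks of −log10 q of at least 3, the stimulated phenelzine list had 1 Fosb region fewer than the stimulated untreated list, and in lists of equal size 2 fewer.

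Fosl1, which encodes Fra-1, and Fosl2, which encodes Fra-2, had few and weak peaks. The 3 regions in the Fosl1 locus were each held by a single list. In the unstimulated untreated list a peak at chr19:5447673-5447905 lay over the lower-numbered end of the gene body (chr19:5447698-5455938), with −log10 q 1.82. The stimulated untreated peak, chr19:5457540-5457630, lay at the end of the neighbouring Ccdc85b gene (1.98), and the stimulated phenelzine peak, chr19:5430034-5430245, lay nearest to AI837181 (2.14). The unstimulated phenelzine list had no region in the Fosl1 locus. Fosl2 had 1 region, chr5:32135471-32135836, in the 2 untreated lists and in neither phenelzine list. Its peaks had −log10 q 1.70 in unstimulated and 2.07 in stimulated cells and ended 636 bp or more before the start, outside the promoter window. All 5 of these peaks lay below the median −log10 q of their lists, which was 2.95, 2.69, 2.93 and 2.68 in the unstimulated untreated, unstimulated phenelzine, stimulated untreated and stimulated phenelzine lists.

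**Figure D2:**
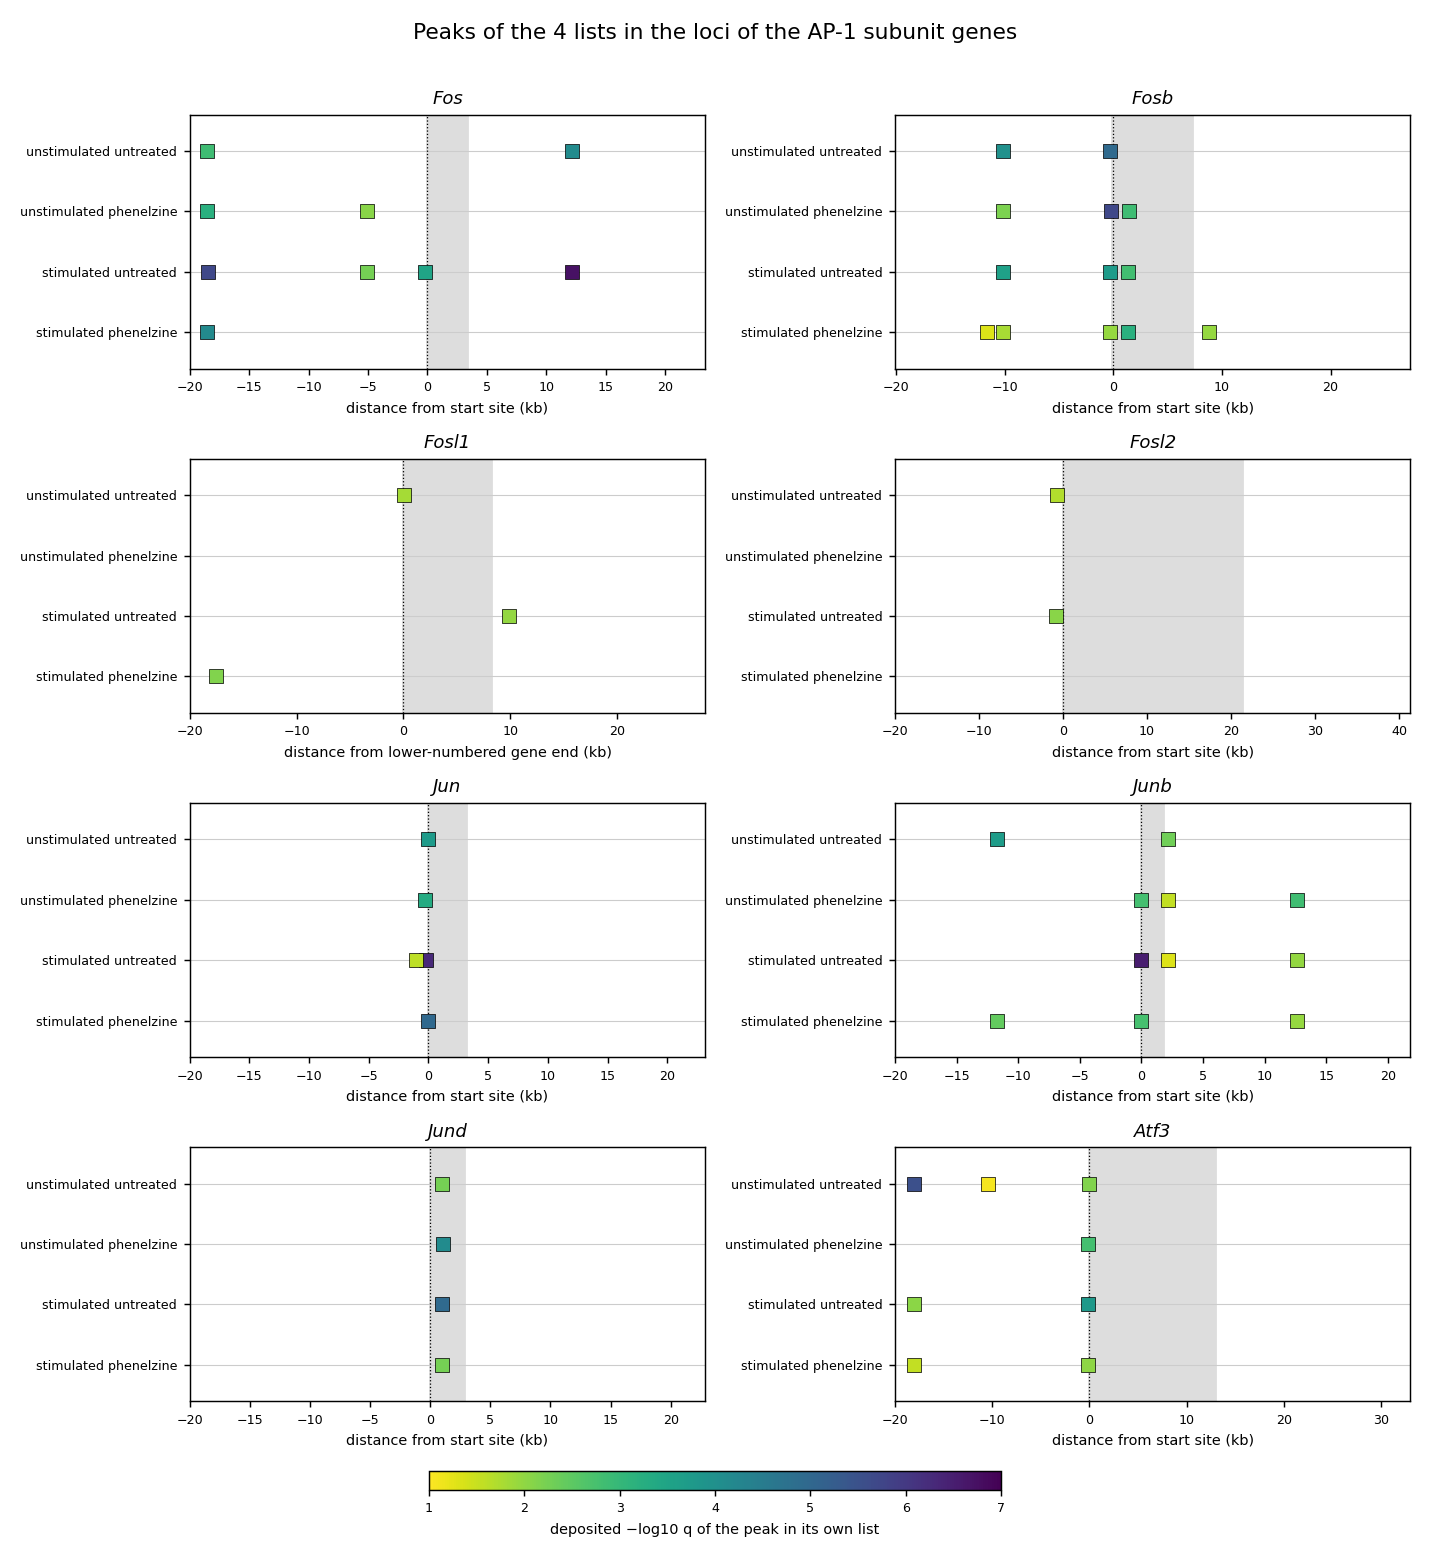
Every peak in the 8 loci, 1 square per peak and 1 row per list, by distance from the start site in kb (for Fosl1 from its lower-numbered end), with the gene body in grey and the colour giving the deposited −log10 q in the peak's own list. The Fos row of the stimulated untreated list has 4 squares and that of the stimulated phenelzine list 1, while Jund has a single square inside the gene in each row.

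Jun encodes the main partner of Fos (gene body chr4:95049036-95052222, minus strand). Its start-site region, chr4:95052158-95052816, was held by all 4 lists and overlapped the antisense noncoding gene Junos. The −log10 q was 3.73 in the unstimulated untreated list (rank 2192 of 6519), 3.33 in the unstimulated phenelzine list (2879 of 7929), 6.31 in the stimulated untreated list (1306 of 10405) and 4.97 in the stimulated phenelzine list (1499 of 9322). All 4 peaks were above their list's median, and all 4 covered the TGACATCA site of the printed Jun sequence at -45 to -38, the CCAAT box at -65 to -61 and the GC box at -89 to -84. The peaks ran from -179 to 65, -594 to 13, -365 to 32 and -169 to 20 in that order of lists. A second region 994 bp upstream, chr4:95053216-95053382, appeared in the stimulated untreated list alone with −log10 q 1.59, rank 9165 of 10405. Without that weak peak Jun had 1 region in every list.

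Junb encodes a Jun protein abundant in activated T cells (gene body chr8:84976909-84978748, minus strand). A peak over its start was held by the 2 stimulated lists and the unstimulated phenelzine list, and the unstimulated untreated list had none. The stimulated untreated peak ran from -152 to 65 with −log10 q 6.52 and rank 1193 of 10405. The stimulated phenelzine peak ran from -122 to 38 with −log10 q 2.78, and the unstimulated phenelzine peak from -48 to 22 with 2.80, so both lay near their lists' medians. The TGACG core at -106 to -102 of the printed Junb sequence was under the 2 stimulated peaks and outside the unstimulated phenelzine peak. Of all promoter windows 1.85% had a peak in every list but the unstimulated untreated one.

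At the other end of Junb, chr8:84976501-84976716, the 2 unstimulated lists and the stimulated untreated list had a peak, with −log10 q 2.29 in the unstimulated untreated, 1.56 in the unstimulated phenelzine and 1.31 in the stimulated untreated list. The remaining 2 regions of the locus lay inside neighbouring genes. That in Rnaseh2a, chr8:84966065-84966239, was held by every list but the unstimulated untreated one (−log10 q 2.83 in the unstimulated phenelzine, 1.97 in the stimulated untreated and 1.96 in the stimulated phenelzine list). That in Hook2, chr8:84990426-84990554, was held by the unstimulated untreated list (3.70) and the stimulated phenelzine list (2.43). Counted over the locus Junb had 2, 3, 3 and 3 regions in the unstimulated untreated, unstimulated phenelzine, stimulated untreated and stimulated phenelzine lists. Of these, 1, 2, 2 and 1 lay at the ends of Junb itself.

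Jund encodes the Jun protein that most cells make without stimulation (gene body chr8:70697739-70700616, plus strand). Its single region, chr8:70698461-70698975, was held by all 4 lists and lay inside the gene. The peaks began 723 bp to 979 bp after the start of the RefSeq entry, and none reached the promoter window. Of the 250 bases before that start 47.6% were G or C, against 58.4% to 68.8% at the other members with an entry. Whether the entry begins at the start site used in these cells was not tested. The −log10 q was 2.26 in the unstimulated untreated, 4.14 in the unstimulated phenelzine, 4.96 in the stimulated untreated and 2.26 in the stimulated phenelzine list. By the count of regions Jund was the same in every condition, as were 2574 other coding genes with 1 region in each list. With −log10 q of at least 3 only the unstimulated phenelzine and stimulated untreated lists kept the Jund region.

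Atf3 encodes a repressor and activator of the ATF family (gene body chr1:191170296-191183333, minus strand). Its start-site region, chr1:191183217-191183660, was held by all 4 lists, and every peak covered the whole promoter window of 300 bases, including the CGTCA core at -7 to -3 of the printed Atf3 sequence. The −log10 q was 2.14 in the unstimulated untreated, 2.80 in the unstimulated phenelzine, 3.78 in the stimulated untreated and 2.03 in the stimulated phenelzine list. A region 18.0 kb upstream, chr1:191201324-191201466, was held by every list but the unstimulated phenelzine one. Its −log10 q was 5.54 in the unstimulated untreated list, at rank 791 of 6519, and 2.04 and 1.56 in the stimulated untreated and stimulated phenelzine lists. A further region 10.4 kb upstream, chr1:191193712-191193866, was in the unstimulated untreated list alone with −log10 q 1.08, rank 6512 of 6519. Atf3 was the member with the most regions in resting untreated cells, 3, against 1 in the unstimulated phenelzine list and 2 in each stimulated list.

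**Figure D3:**
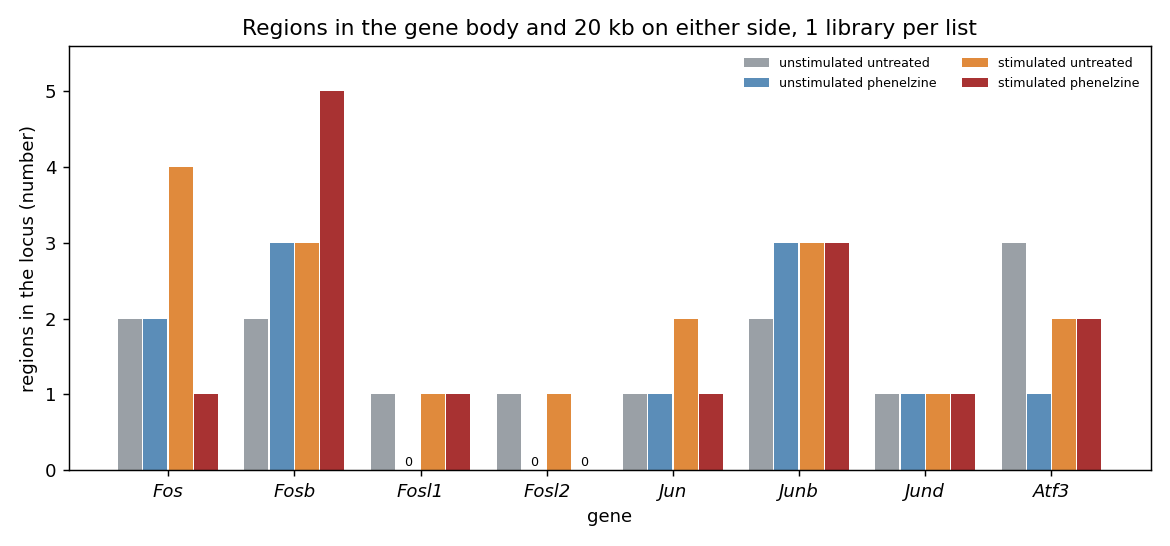
Number of regions in the gene body and 20 kb on either side for each gene (bars from 0, 1 colour per list, 1 library each, so without error bars). Fos is highest in the stimulated untreated list with 4, Fosb in the stimulated phenelzine list with 5 and Atf3 in the unstimulated untreated list with 3, while Jund has 1 throughout.

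The first comparison asked what stimulation did in untreated cells. Fos had 2 more regions (4 against 2), and Fosb (3 against 2), Jun (2 against 1) and Junb (3 against 2) had 1 more each. Atf3 had 1 fewer (2 against 3), and Fosl1, Fosl2 and Jund had equal numbers. So 4 of the 8 members had more regions after stimulation, where 23.6% of all coding genes did, and 1 had fewer, where 4.53% did. Among the 12572 coding genes with a region in any list, to which all 8 members belong, 40.6% had more and 7.79% fewer. The members' share is near that background. The stimulated list was the longer of the 2, and by the background pileup the lists imply its library was the deeper (0.493 against 0.392). The part of depth in these counts was not tested. With lists of equal size 2 members had more and 4 fewer, and Fos and Fosb were the 2 with more. With −log10 q of at least 3 it was 2 with more and 0 with fewer, and the Fos promoter peak passed both limits.

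In phenelzine-treated cells stimulation went with more regions at Fosb (5 against 3), Fosl1 (1 against 0) and Atf3 (2 against 1), and with fewer at Fos (1 against 2). Fosl2 had 0 in both lists, and Jun, Junb and Jund had equal numbers. These were 3 of 8 members with more and 1 with fewer, against 16.0% and 9.56% of all coding genes, or 27.5% and 16.4% of those with a region in any list. With −log10 q of at least 3 no member had more. With lists of equal size the Fosb difference turned to -2 and the Atf3 difference was 0.

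Phenelzine in unstimulated cells went with more regions at Fosb (3 against 2) and Junb (3 against 2). It went with fewer at Atf3 (1 against 3), Fosl1 (0 against 1) and Fosl2 (0 against 1), and Fos, Jun and Jund had equal numbers. Thus 2 of 8 members had more and 3 fewer, against 15.7% and 8.54% of all coding genes, and 27.0% and 14.7% of those with a region in any list. With −log10 q of at least 3 the differences at Fosb and Junb turned to -1. The implied pileup was 0.471 with phenelzine and 0.392 without. In stimulated cells phenelzine went with more regions at Fosb alone (5 against 3) and with fewer at Fos (1 against 4), Jun (1 against 2) and Fosl2 (0 against 1). Here 1 of 8 had more and 3 fewer, against 10.4% and 16.2% of all coding genes and 17.8% and 28.0% of those with a region in any list. The difference of 3 at Fos was the largest of any member in the 4 comparisons. It comprised the promoter region, the region 5.0 kb upstream and the one 12.1 kb downstream. These comparisons share libraries and are not independent of each other.

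In the promoter windows of the 7 members with an entry, the unstimulated untreated list had a peak in 3 (Fosb, Jun and Atf3), and the unstimulated phenelzine and stimulated phenelzine lists in 4 (these and Junb). The stimulated untreated list had a peak in 5 (these 4 and Fos). Of all windows 14.6%, 16.4%, 17.7% and 18.9% had a peak in the unstimulated untreated, unstimulated phenelzine, stimulated phenelzine and stimulated untreated lists. There were 32619 windows and 21631 coding genes, so shares of windows and shares of coding genes rest on different sets. Fosl2 and Jund had none in any list, as had 77.1% of all windows. All windows rest on the start of the RefSeq entry, and its use in these cells was not tested. A peak in all 4 lists was found at 3 members, Fosb, Jun and Atf3, and at 11.1% of all windows. For Fosb the overlap was 14, 261, 3 and 10 bases in the unstimulated untreated, unstimulated phenelzine, stimulated untreated and stimulated phenelzine lists, so 3 of these 4 peaks only touched the window.

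With 23 regions, their split by number of lists could not be told from that over all regions. The regions cluster in 8 loci and come from the same 4 libraries. The intervals below take them as independent and may be too narrow. Of the 23 regions, 8 were held by 1 list alone, 34.8% (exact Clopper-Pearson 95% interval 16.4 to 57.3, counting error only), and 43.6% of all 15237 regions were. All 4 lists held 6, or 26.1% (10.2 to 48.4), against 26.8% of all regions. No region of the 8 loci was held by exactly the 2 stimulated lists, a pattern of 5.88% of all regions, nor by exactly the 2 phenelzine lists (2.45%). The 2 untreated lists alone shared 2, the downstream Fos region and the Fosl2 region (1.87% of all). Every list but the unstimulated untreated one held 3, at the Junb start, in Rnaseh2a and inside Fosb (6.20% of all). Of the 10 regions within 1 kb of an end of a member, 4 were in all 4 lists and 3 in a single list, and of the 13 others 2 and 5. Such an end region was present at all 8 members in some list, as at 34.9% of coding genes. It was present at 7 members in the unstimulated untreated list (23.1% of coding genes), 5 in the unstimulated phenelzine list (25.6%), 7 in the stimulated untreated list (29.3%) and 5 in the stimulated phenelzine list (27.4%).

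Regions held by a single list had the lower values. Their 8 peaks in the AP-1 loci had a median −log10 q of 1.89 (1.08 to 3.50), the Fos promoter peak being the highest. The 24 peaks of regions held by all 4 lists had a median of 3.66 (1.79 to 6.31). Over all regions the medians were 1.85 and 3.91. Whether a region that a list lacks was closed or only below the threshold there cannot be told from the lists. Of the member peaks, 6 of 13 in the unstimulated untreated list lay above the median of that list. The counts were 8 of 11 in the unstimulated phenelzine, 9 of 17 in the stimulated untreated and 4 of 14 in the stimulated phenelzine list.

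**Figure D4:**
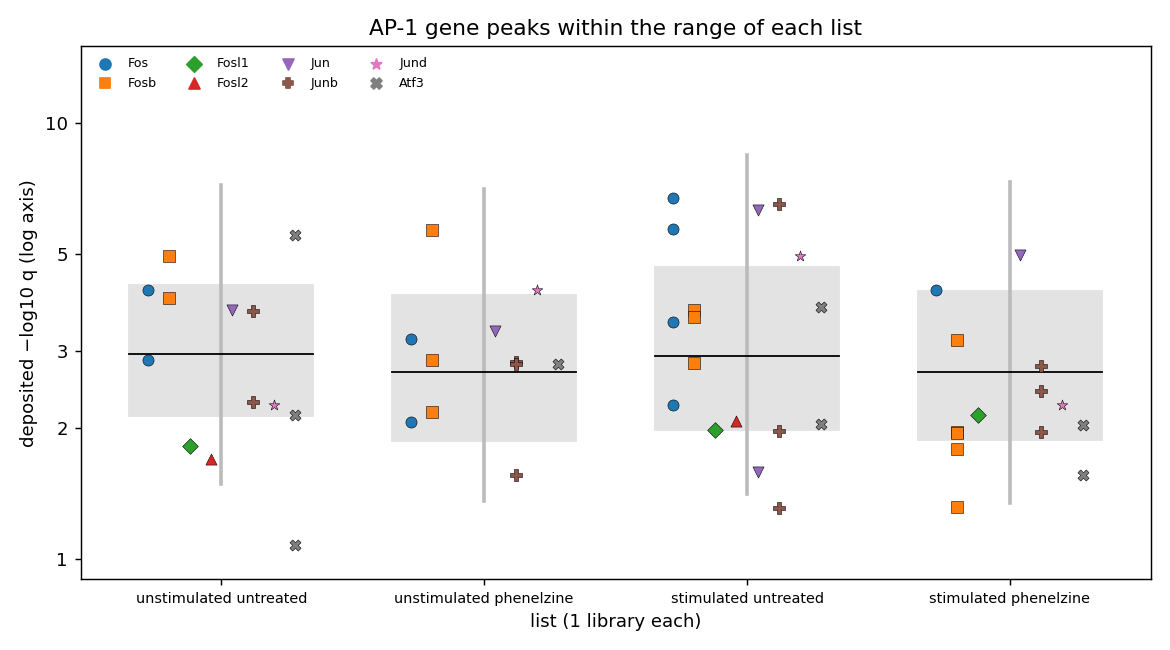
Deposited −log10 q (log axis) of each AP-1 gene peak, 1 symbol per peak, over the 5th to 95th percentile (line), the quartiles (box) and the median (bar) of all peaks of the same list. The highest symbols are the stimulated untreated peaks of Fos (6.72), Junb (6.52) and Jun (6.31), within the range of that list's other peaks.

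Other basic leucine zipper genes, whose products pair with or compete with AP-1, were taken as a list of 24. Of these, 20 had a region in any list, where 58.1% of all coding genes did. After stimulation 7 had more and 3 fewer in untreated cells, where 40.6% and 7.79% of coding genes with a region in any list did, and 7 more and 3 fewer in phenelzine-treated cells (27.5% and 16.4%). With phenelzine 5 had more and 6 fewer in unstimulated cells (27.0% and 14.7%), and 4 more and 8 fewer in stimulated cells (17.8% and 28.0%). Nfe2l2, which encodes the oxidative stress factor Nrf2, had 6 regions in the stimulated untreated list against 2 in the unstimulated untreated and 3 in each phenelzine list. Jdp2, an AP-1 repressor gene, had 3 in the stimulated untreated list and 0 in the other 3. Bach2, which encodes a repressor that competes at AP-1 sites, had 3 and 4 in the unstimulated and stimulated untreated lists and 0 and 1 in the unstimulated and stimulated phenelzine lists. Creb1, the gene of a CRE-binding factor, had 2 in each untreated list and 0 and 1 with phenelzine, unstimulated and stimulated. Atf6, an endoplasmic reticulum stress gene, went the other way, with 1 and 2 untreated and 3 and 6 with phenelzine. Batf, Batf2 and Batf3, whose products pair with Jun in lymphocytes, had no region in any list, and are named after their values were seen.

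Of 20 genes upstream of AP-1 (MAP kinases, their kinases, Ets and serum response factors, and regulators of Jun turnover), all had a region in some list, where 58.1% of all coding genes did. After stimulation 10 had more and 1 fewer in untreated cells, and 5 more and 3 fewer in phenelzine-treated cells. With phenelzine 7 had more and 2 fewer in unstimulated cells, and 4 more and 5 fewer in stimulated cells. Beside the shares of coding genes with a region given for the preceding list (40.6% and 7.79%, 27.5% and 16.4%, 27.0% and 14.7%, 17.8% and 28.0%, in the same order), most of these counts were near the background. The MAP kinase gene Mapk3, which encodes ERK1, had 0 in the unstimulated untreated list, 1 in the unstimulated phenelzine list and 2 in each stimulated list. Elk3 and Elk4, Ets factor genes whose products bind with serum response factor, had 0 in both unstimulated lists. In the stimulated untreated and stimulated phenelzine lists Elk3 had 2 and 1, and Elk4 had 1 and 2. Itch, a ubiquitin ligase gene that acts on Jun proteins, had 2 in every list.

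Likeness was measured as the sum over the 4 lists of the absolute difference in region counts, among these 44 genes. Crem and Mrtfa had the same counts as Jun, and Mapk8, which encodes the kinase JNK1, the same as Fosl1. For Jund there were 8 such genes, among them Atf5, Bach1 and Cebpb. Atf4 differed from Atf3 by 1 region, Ddit3 from Junb by 2, and Atf6 from Fosb by 3. The nearest to Fos were Bach2 and Itch at 3. With 4 counts per gene many genes coincide: 382 of all coding genes had the counts of Jun and 307 those of Fosl1, themselves included.

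The lists were of limited depth. They held between 6519 and 10405 peaks on the chromosomes used, of median width 139 to 150 bp. Total reads are not in the lists, and the background pileup they imply was 0.392 in the unstimulated untreated library and 0.471 to 0.493 in the others. Among T cell and CD8 markers 7 of 11 had a region in some list, a share near the 58.1% of all coding genes, and so the count is no check of the label. They included Cd3d, Cd3g, Cd247 and Lck, while Cd8a, Cd8b1, Cd2 and Zap70 had none in any. Added gene by gene, the 11 markers had 5, 6, 9 and 5 regions in the unstimulated untreated, unstimulated phenelzine, stimulated untreated and stimulated phenelzine lists. A region in overlapping loci counts once for each gene, so distinct regions may be fewer. Cd3d and Cd3g, for example, had the same counts, 1, 2, 2 and 1. Markers of other cells had regions too: 4 of 6 myeloid genes, 3 of 4 CD4 T cell genes, 2 of 5 B cell genes, 2 of 5 epithelial genes, 1 of 4 NK genes and 1 of 5 stromal genes, on the same background of 58.1%. Of the myeloid markers, Cd68 had 2, 4, 3 and 4 regions and Spi1 1, 0, 2 and 2, in the same order of lists. Lyz2 had 1 in the unstimulated phenelzine list alone and Cebpa 1 in the stimulated untreated list alone. Itgam and Csf1r had none. A peak in a locus can belong to a neighbouring gene, and the part of other cells in the AP-1 results was not tested.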

How the data were processed

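The submitters' processing notes name mm10, MACS2, HOMER, Picard, Bowtie2 2.2.5 and Trimmomatic 0.33, without parameters or filters. The authors deposited 1 list of broad peaks per library, called without pooling. In the deposited lists the fold enrichment is a ratio over local background, p-value and q-value are on the −log10 scale, and the score is 10 times −log10 q, rounded down, in 99.98% of peaks of the stimulated untreated list and 100% of those of the others. Each belongs to its own list, so values were set side by side and not tested.

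Peaks on chromosomes 1 to 19 and X were merged across lists by an overlap of at least 1 bp and counted in each locus with Python 3.11.15 and pandas 2.3.3. Tested on simulated data, 100% of 500 regions and of 200 genes came back as planted. The planted regions lay far apart and the peaks of each always overlapped. This checked the counting only, and close or chained peaks were not simulated. The background pileup follows from the commonest combination of fold and −log10 p in a list, shared by 107 to 190 peaks, taking p as a Poisson tail. A gene table and promoter windows of RefSeq (GRCm38.p6) gave positions; 7 of 8 members matched a window. A gene end means 1 kb on either side of either end. Named genes were all members, the nearest genes of their regions, and from each list those with the most regions and the highest and lowest differences. Members, lists and settings were chosen with earlier results of these data known. Peak names carry the tag less120, whose meaning is not given in the sources used here; if it is a limit on fragment length, the lists describe short fragments only.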

Additional observations from a re-analysis of the deposited data

Results flagged for a closer look

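At Fos and at Atf3 the difference between stimulated and unstimulated cells had opposite signs with and without phenelzine. At Fos it was 2 regions in untreated cells (4 against 2) and -1 in phenelzine-treated cells (1 against 2). At Atf3 it was -1 in untreated cells (2 against 3) and 1 in phenelzine-treated cells (2 against 1). With 1 library per condition this difference between the arms was not tested. Of all 21631 coding genes 1185 (5.48%) had opposite signs, in either direction. Only the 12572 genes with a region in any list can have them, so 5.48% is a low base for the members. The opposite signs were lost under some settings. With −log10 q of at least 3 the Fos difference in phenelzine-treated cells was 0, as were both Atf3 differences. At Atf3 both were also 0 with flanks of 5 kb, and the one in phenelzine-treated cells was 0 with lists of equal size. The Atf3 counts turn on the region in the unstimulated untreated list with −log10 q 1.08 and on the region 18.0 kb upstream that the unstimulated phenelzine list lacks. Implied background pileup was 0.392 in the unstimulated untreated library against 0.471 to 0.493 in the others, and its part in these counts was not tested.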

How the results depend on the processing

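No paired analysis was possible because each condition has 1 library, and for the same reason no replicate could be left out. Of 102 recomputed counts, 68 stayed within 1.5 times the reported ones. Requiring overlaps of 50% of the shorter peak, or merging peaks up to 100 bp apart, changed no region count of the members, and a gene end window of 500 bp moved none by over 1.5 times. All counts under the overlap and merging settings are thus among the 68. Lists are given in the order unstimulated untreated, unstimulated phenelzine, stimulated untreated, stimulated phenelzine. Regions in the 8 loci, 13, 11, 17 and 14 as reported, were 6, 4, 9 and 3 with −log10 q of at least 3. They were 17, 18, 28 and 24 with flanks of 50 kb, 7 in the first and last list with flanks of 5 kb, and 10 and 8 in the stimulated lists with equal sizes. Regions in all 4 lists, 6 as reported, were 1 with −log10 q of at least 3 and 10 with 50 kb. Regions in a single list, 8 as reported, were 5 with 5 kb and 17 with 50 kb.

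Members with more regions after stimulation in untreated cells, 4 as reported, were 2 with −log10 q of at least 3 and 2 with equal sizes, and those with fewer, 1 as reported, were 0 with the q limit, 0 with 5 kb, 4 with equal sizes and 2 with only regions nearest to the member. In phenelzine-treated cells those with more, 3 as reported, were 0, 1 and 1 with the q limit, equal sizes and 5 kb, and those with fewer, 1 as reported, were 2 with 5 kb, equal sizes or nearest regions only. With phenelzine in unstimulated cells those with more, 2 as reported, were 1 with the q limit and 1 with equal sizes. In stimulated cells those with more, 1 as reported, were 0 with the q limit, 2 with equal sizes and 3 with 50 kb, and those with fewer, 3 as reported, were 5 with the q limit and 5 with 5 kb.

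The 18 differences of single members that were not 0 as reported gave 126 recomputed values. Of these, 95 kept their sign, 23 became 0 and 8 reversed. The overlap and merging settings changed no difference, so their values for these 18 are all among the 95. Differences of 0 as reported are not in these counts, and some of them moved. With −log10 q of at least 3 every Jund difference became 1 or -1. With 50 kb the Fosl1 differences became 3 for stimulation in untreated cells and -2 for phenelzine in stimulated cells. The Fosb difference reversed to -1 (phenelzine, both stimulation states) with the q limit, and to -2 (phenelzine in stimulated cells, and stimulation in phenelzine-treated cells) with equal sizes. Junb reversed to -1 for phenelzine in unstimulated cells with the q limit and for stimulation in untreated cells with equal sizes. With 50 kb, Fosl1 reversed to 1 for phenelzine in unstimulated cells and Jun to 1 for phenelzine in stimulated cells. The cause was not tested beyond the fewer or added peaks that each setting counts. The Fos differences for stimulation in untreated cells (1 to 2) and phenelzine in stimulated cells (-3 to -2) kept their sign in all 7 alternatives. The overlap, merging and nearest-region settings changed no Fos difference, so only the other settings bear on this.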

Other observations

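Fos shares its stretch of chromosome 12 with the AP-1 repressor gene Jdp2, 121 kb farther along, and Batf, 46.8 kb beyond Jdp2. The 3 Jdp2 regions were, like the Fos promoter peak, in the stimulated untreated list alone. So were 2689 of all 15237 regions (17.6%), the commonest single-list pattern. The Jdp2 regions lay before the lower-numbered end of the gene at chr12:85593101-85593185 (fold enrichment 6.71, −log10 q 6.25) and inside it at chr12:85619624-85619750 (4.76 and 2.70) and chr12:85624754-85624884 (4.01 and 1.53). Batf had no region in any list. These neighbours were singled out after their values were seen, and no test was made.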
